A study of Mus musculus with 16 samples.

Results

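The miR-148 and miR-152 family was followed through 16 small RNA libraries of C2C12, an established line of mouse myoblasts whose cells fuse and become myotubes after serum withdrawal. Its 6 members are the 3p and 5p arms of miR-148a, miR-148b and miR-152, chosen by name, and all 6 were among the 2510 names listed. Their 4479 lines held 205284 reads of the 38541236 deposited. The rule uses names only.

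The libraries fall into 4 groups of 4. Control cells are wild-type, and tKO cells have a triple knockout of the miR-1a-1, miR-1a-2 and miR-206 genes. Both were sampled in growth medium with 20% fetal bovine serum (GM, before confluence) and after 3 days in 2% horse serum (DM3). Every group, control and tKO alike, descends from cells that the growth protocol calls C2C12 PAX7 NEG. Each group holds 2 lines, which are 2 populations for control and 2 clones for tKO, with 2 replicates a line. Each genotype therefore rests on 2 lines, and each tKO line is 1 clone. Values below are given in the order line 1 replicate 1, line 1 replicate 2, line 2 replicate 1, line 2 replicate 2.

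The libraries held 112792 to 6543570 reads, and in each group those of replicate 2 were larger. The knockout was visible: miR-206-3p was lower in tKO by a log2 fold change of -7.52 in GM (edgeR adjusted p = 5.76e-05) and -11.85 in DM3 (adjusted p = 1.46e-06), and miR-1a-3p was lower by -4.60 in DM3 (adjusted p = 0.000341), with a value of -2.08 in GM that did not pass the test (adjusted p = 0.225). The muscle miRNA miR-133a-3p was higher in DM3 by 6.99 in control and 6.29 in tKO (edgeR adjusted p = 8.74e-06 and 3.18e-05).

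A miRNA hairpin yields a 3p and a 5p arm, and the arm kept in the Argonaute complex pairs with messenger RNAs mainly through its seed, bases 2 to 8. The 3p arms of this family share 1 seed and are the guides. They are known for repressing DNA methyltransferases, Dnmt1 above all, and miR-148a has been described as a promoter of myogenic differentiation through Rock1. Nucleotidyl transferases can add uridines or adenosines to the 3′ end of a mature miRNA, and a shift of the Dicer or Drosha cut at the 5′ end changes the seed itself.

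The mature sequences are printed because the seed groups the arms and because few bases separate the 3p members. They are RefSeq entries on GRCm38.p6, found for 6 of 6 members, with the seed in capitals.
miR-148b-3p: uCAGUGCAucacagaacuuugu
miR-152-3p: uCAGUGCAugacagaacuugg
miR-148a-3p: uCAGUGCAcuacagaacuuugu
miR-148b-5p: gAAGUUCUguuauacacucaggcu
miR-148a-5p: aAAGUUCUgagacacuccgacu
miR-152-5p: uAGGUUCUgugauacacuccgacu
The 3 guide arms share CAGUGCA, the 5p arms of miR-148a and miR-148b share AAGUUCU, and miR-152-5p has AGGUUCU. Counted from 1 at the 5′ end and with the miR-148a-3p base first, miR-148b-3p differs from it by C9U and U10C, so that 20 of 22 bases are equal. From miR-148b-3p to miR-152-3p the changes over 21 bases are C10G and U20G. The miR-130 and miR-301 guides have the same letters moved by 1 base.
miR-130a-3p: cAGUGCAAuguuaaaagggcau
miR-301a-3p: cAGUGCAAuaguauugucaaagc

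The 3 hairpins lie on different chromosomes of the same build. Mir148b is at chr15:103285125-103285221 on the plus strand, inside Copz1 (chr15:103272714-103299868), and Mir152 is at chr11:96850393-96850465 on the plus strand, inside Copz2 (chr11:96849870-96861203). Copz1 and Copz2 encode zeta subunits of the coatomer of vesicle coats. In the GENCODE annotation no exon of either host overlaps its hairpin, so both are intronic. Mir148a, at chr6:51269812-51269910 on the minus strand, overlaps no other annotated gene.

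In these cells the family was mostly miR-148b-3p and miR-152-3p. Summed over all libraries, miR-148b-3p had 127247.5 listed reads, miR-152-3p 63688.5, miR-152-5p 10220, miR-148b-5p 3148, miR-148a-3p 924 and miR-148a-5p 56. By mean CPM (reads scaled to a common library total), miR-148b-3p ranked 54th of 2274 names at 3519 CPM, and miR-152-3p ranked 82nd at 1573 CPM. miR-152-5p averaged 258 CPM, miR-148b-5p 78.0 CPM, miR-148a-3p 24.1 CPM and miR-148a-5p 1.68 CPM. The deposited expected counts need not be whole. In every library miR-148b-3p lay above miR-152-3p, and miR-152-3p above miR-152-5p. miR-152-5p lay above miR-148b-5p in all libraries but tKO GM line 1 replicate 2. A filter on low counts left 807 names for the tests, and 5 of the 6 members passed; miR-148a-5p, with 0 to 11 reads a library, did not.

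Neither abundant guide passed the main test for the genotype or for differentiation. In control GM, miR-148b-3p stood at 2586, 3745, 2975 and 3173 CPM after trimmed-mean (TMM) scaling, and in tKO GM at 3482, 2100, 3181 and 3543. In control DM3 it stood at 3478, 3023, 5203 and 3767, and in tKO DM3 at 2162, 3222, 5480 and 4813. The 4 groups overlap, and the highest values are those of line 2 in DM3 for both genotypes. The edgeR log2 fold change of tKO against control was -0.02 ± 0.30 (SE) in GM (adjusted p = 0.991) and 0.02 ± 0.31 in DM3 (adjusted p = 0.986). That of DM3 against GM was 0.31 ± 0.31 in control (adjusted p = 0.493) and 0.35 ± 0.31 in tKO (adjusted p = 0.464), with a 95% interval of -0.29 to 0.91 in control and -0.25 to 0.95 in tKO. With 1 library left out at a time, these ran from 0.063 (without control DM3 line 2 replicate 1) to 0.35 in control and from 0.13 (without tKO DM3 line 2 replicate 1) to 0.56 (without tKO DM3 line 1 replicate 1) in tKO.

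miR-152-3p, the guide from the Copz2 intron, ranged from 675 to 2290 TMM-scaled CPM over all libraries. It stood at 1200, 1687, 2028 and 2024 TMM-scaled CPM in control GM and at 2262, 675, 1864 and 1812 in tKO GM. In DM3 it stood at 1075, 774, 1317 and 1946 in control and at 1259, 1615, 2011 and 2290 in tKO. The groups overlap, and line 1 lay below line 2 in DM3 for both genotypes and both replicates. Its log2 fold change of DM3 against GM was -0.44 ± 0.37 in control (adjusted p = 0.405) and 0.12 ± 0.37 in tKO (adjusted p = 0.869). Of tKO against control it was -0.07 ± 0.37 in GM (adjusted p = 0.991) and 0.49 ± 0.37 in DM3 (adjusted p = 0.601). The difference between the 2 differentiation effects was 0.56 ± 0.52 (adjusted p = 0.937). With 1 library left out at a time, the value in control differentiation ran from -0.82 to -0.32, that of the genotype in DM3 from 0.38 to 0.88 and the interaction from 0.28 to 0.92. The values -0.82, 0.88 and 0.92 were those without control DM3 line 2 replicate 2, and 0.28 that without tKO GM line 1 replicate 2.

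The 5p arm of miR-152 stood at 148.2, 255, 258 and 301 TMM-scaled CPM in control GM, at 277, 117, 244 and 217 in tKO GM, at 162, 201, 331 and 390 in control DM3 and at 154, 332, 358 and 421 in tKO DM3. Its log2 fold change of DM3 against GM was 0.17 ± 0.40 in control and 0.58 ± 0.40 in tKO, with adjusted p of 0.789 and 0.338 by edgeR. miR-148b-5p, its counterpart on the miR-148b hairpin, stood at 40.5 to 97.0 TMM-scaled CPM in the other 3 groups and at 68.2, 186, 81.3 and 112 in tKO GM. Its log2 fold changes of DM3 against GM were -0.51 ± 0.37 and -0.81 ± 0.37 (adjusted p = 0.336 and 0.140).

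**Figure D1:**
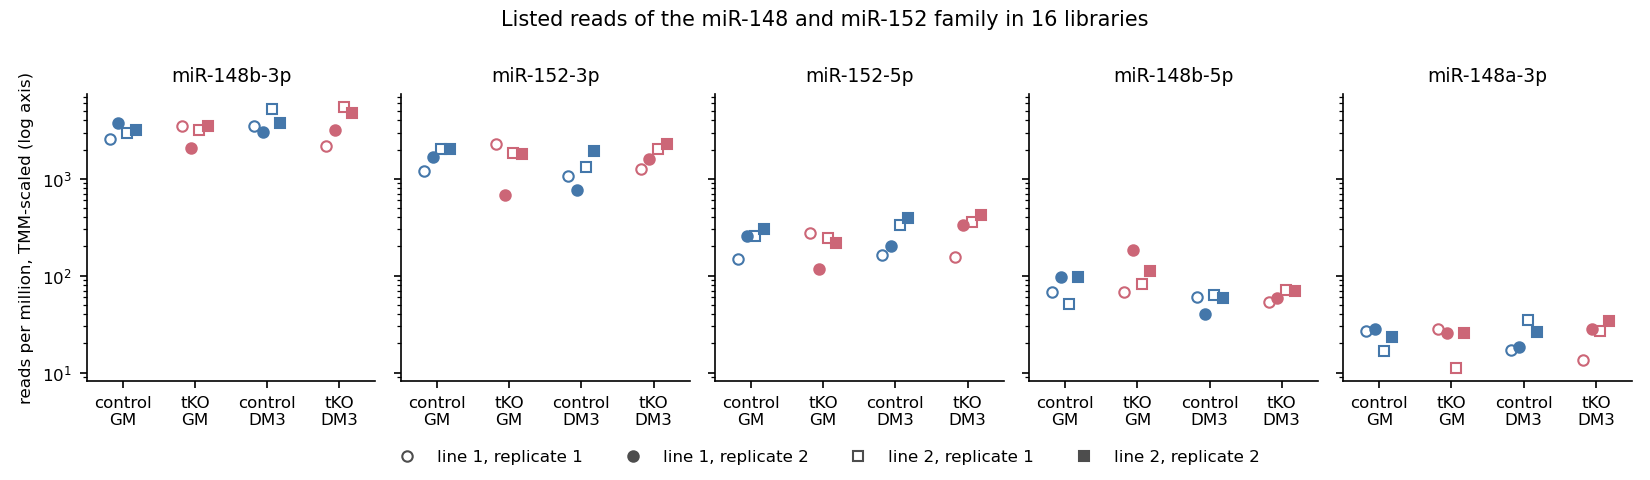
TMM-scaled CPM (log axis) of 5 family members in each of the 16 libraries, with circles for line 1, squares for line 2, open symbols for replicate 1 and filled symbols for replicate 2. In each comparison of genotypes or media the 2 groups of each member overlap, and miR-148b-3p lies above miR-152-3p in every library.

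Of the 5 members tested, 0 were called in any of the 5 comparisons, whereas among all 807 names the share called was 1.12% for the genotype in GM, 0.867% for the genotype in DM3, 27.6% for differentiation in control, 19.7% for differentiation in tKO and 0% for the interaction. For miR-148b-5p in tKO differentiation the edgeR p on listed reads was 0.0428 before adjustment (adjusted p = 0.140). On the re-read reads described below its log2 fold change there was -0.01 ± 0.33. The shares of all names above are at adjusted p, so this unadjusted p cannot be set beside them. In the genotype comparisons the DESeq2 Wald test also called 0 members, where it called 20 names in GM and 19 in DM3. The median log2 fold change of the 5 members was -0.07 and 0.21 for the genotype in GM and DM3, and 0.03 and 0.27 for differentiation in control and tKO, beside medians of 0.11, 0.09, 0.02 and 0.01 over all names.

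The scaling and the reads counted changed how miR-148b-3p compared between GM and DM3. Without TMM, miR-148b-3p was at 2451, 3325, 2347 and 2603 CPM in control GM and at 4920, 3386, 5654 and 3568 CPM in control DM3. These groups do not overlap, but the share of all names that lie apart on this scale is not given here. Scaling to the total alone moved the median of all names by 0.38 in that comparison, and the edgeR log2 fold change of miR-148b-3p became 0.71 (adjusted p = 0.0445, where 26.6% of 807 names were called), which is 0.32 above the median of all names against 0.29 with TMM. It also raised the share of calls that were higher in DM3 from 57.4% to 71.2% in control and from 57.9% to 71.7% in tKO. In all, 6 of 27 alternatives called miR-148b-3p higher in control DM3. Beside total counts these were sequences without mismatches (31.9% of names called), of 18 to 25 nt (28.2%) and of exact mature sequence (29.5%), and the re-read reads without and with the replicate block (29.8% and 33.3%). When only reads matched again to the hairpins were counted, as described next, its log2 fold change was 0.75 ± 0.22 in control (adjusted p = 0.0143) and 0.50 ± 0.22 in tKO (adjusted p = 0.0960). By that count 14.2% of 372 names were called higher in control DM3 and 12.9% in tKO DM3. Within replicate 2 alone the change in control was -0.01 on the listed reads, and within replicate 1 alone it was 0.56.

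**Figure D2:**
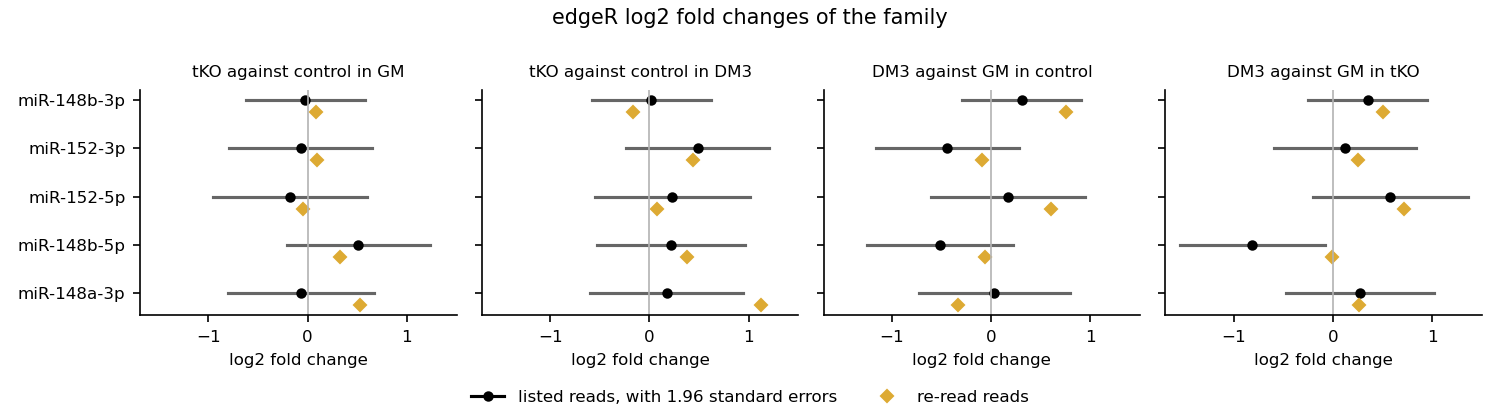
edgeR log2 fold changes of 5 members in 4 comparisons; dots with bars show the listed reads with approximate 95% intervals, and diamonds the re-read reads. The bars cross 0 in every panel except for miR-148b-5p in tKO differentiation, where the diamond sits at -0.01.

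The tables list sequences as short as 13 nt with up to a mismatch, so each read was read again as sequenced (the listed sequence plus its tail letters) and matched to the RefSeq hairpins. A read counted when at least 16 nt matched from a start within 3 nt of the mature start, with at most 5 further bases at the 3′ end. This kept 94.2% of the listed reads of miR-148b-3p, 93.4% of miR-152-3p and 93.8% of miR-152-5p. It kept 55.3% of miR-148b-5p, 45.3% of miR-148a-3p and 7.14% of miR-148a-5p. Over whole libraries 40.7% to 78.8% of reads were kept, the lowest share in tKO DM3 line 1 replicate 1.

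Most of the reads lost for miR-148b-5p were 1 sequence of 13 nt, listed with a mismatch, which held 1230 of the 3148 reads (39.1%). It is shown because it holds much of the name's reads, with its 2 tail letters in capitals in the commonest read.
13 nt sequence under miR-148b-5p: gaggtgaaattct
with its TG tail: gaggtgaaattctTG
Of these reads 1111 carried the TG tail, and the resulting 15 nt occur in 1 GENCODE transcript, that of Gm42418, a lincRNA on chromosome 17 that overlaps the RefSeq pseudogene Rn18s-rs5, related to 18S ribosomal RNA. The sequence made up 74.0% of miR-148b-5p reads in tKO GM line 1 replicate 2 (Wilson 95% interval 69.7% to 77.9%) and 4.21% in tKO DM3 line 1 replicate 2 (2.23% to 7.80%). Re-read, the log2 fold change of miR-148b-5p was -0.06 ± 0.34 in control differentiation and -0.01 ± 0.33 in tKO.

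miR-148a-3p was listed at 11.1 to 34.7 TMM-scaled CPM, but 461 of its 924 reads (49.9%) were 1 base from miR-148a-3p and also 1 base from miR-148b-3p or miR-152-3p. The commonest templated form and the commonest mismatched one are shown, with bases 9 and 10, which set miR-148a-3p apart from miR-148b-3p, in capitals.
templated (324 reads): tcagtgcaCTacagaactttgt
with 1 mismatch (237 reads): tcagtgcaCCacagaactttgt
The forms 1 base from both came to 2.96 to 10.4 reads per 1000 miR-148b-3p reads. Templated reads of miR-148a-3p numbered 413 in all and were 0 in control GM and control DM3 of line 1 replicate 1, which allows up to 5.86 and 12.1 CPM. In the other libraries they ran from 1.11 to 21.9 CPM. The highest were tKO GM line 1 replicate 2 at 21.9 CPM and tKO DM3 line 1 replicate 2 at 19.8 CPM, both of clone 1. Re-read, tKO against control was 0.53 ± 0.63 in GM and 1.12 ± 0.77 in DM3, with adjusted p of 0.861 and 0.491 by edgeR.

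Between the guides, reads could change name with the library. A 19 nt form of miR-148b-3p was listed under miR-152-3p in 3 libraries (257 reads) and under miR-148b-3p in the other 13. The 3 libraries are control GM, control DM3 and tKO DM3, each of line 1 replicate 1. Of this form's 19548 reads, 98.3% carried a TG tail in the deposited columns, and the form with its tail is 21 nt of the hairpin itself.
listed, 19 nt: tcagtgcatcacagaactt
with its tail in capitals, 21 nt: tcagtgcatcacagaacttTG
The deposited tail columns therefore count templated bases as added ones: they gave 34.1% to 67.0% of miR-148b-3p reads a tail. The tail results that follow use the re-read reads.

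The libraries of GM and DM3 overlapped in the share of each guide among the 3p reads. miR-148b-3p made up 67.8%, 68.6%, 59.3% and 60.8% of the family's 3p reads in control GM and 60.3%, 75.0%, 62.9% and 65.8% in tKO GM. In DM3 it made up 76.1%, 79.2%, 79.4% and 65.6% in control and 63.0%, 66.2%, 72.9% and 67.4% in tKO. The mean was 10.97 percentage points higher in control DM3 than in control GM (75.1% ± 6.48 against 64.1% ± 4.77, SD, n = 4 each; two-sided exact permutation p = 0.0857, 0.343 adjusted over 12 tests). It was higher in DM3 in 4 of 4 control pairs of the same line and replicate number, and the exact permutation within replicate numbers gave p = 0.111. With 1 library left out at a time the difference ran from 9.36 to 14.1 points, the latter without control DM3 line 2 replicate 2. The mean share was 1.36 points higher in tKO DM3 than in tKO GM (exact permutation p = 0.686), and the share was higher in 3 of 4 pairs. The smallest p that 4 against 4 libraries can give is 0.0286.

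The 5p arm of miR-152 took 10.99%, 13.2%, 11.3% and 12.9% of the hairpin's reads in control GM and 13.1%, 20.6%, 20.1% and 16.7% in control DM3. The mean log2 ratio of 5p to 3p reads was -2.86 ± 0.15 (SD, n = 4) in GM and -2.24 ± 0.36 in DM3, a difference of 0.62 (exact permutation p = 0.0286, 0.229 adjusted over 8 tests). The 2 groups do not overlap on that scale, to which 0.5 reads were added in each arm, as for 14.3% of 112 hairpins with a higher 5p ratio in DM3, but as percentages the lowest DM3 library (13.1%) lies just below the highest GM library (13.2%). That DM3 library, line 1 replicate 1, is one of the 3 that list the 19 nt form of miR-148b-3p under miR-152-3p. In re-read reads the 5p share was 11.4% to 13.1% in control GM and 16.6% to 20.8% in control DM3, which do not overlap, as for 11% of 73 hairpins with the higher 5p share in DM3. In tKO it was -2.88 ± 0.25 in GM and -2.56 ± 0.31 in DM3 (exact permutation p = 0.114). On the miR-148b hairpin the 5p arm took 1.19% to 8.13% of the listed reads, the highest in tKO GM line 1 replicate 2, where the 13 nt sequence held 74.0% of the 5p reads. Re-read, it took 0.316% to 2.15%.

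miR-148b-3p and miR-152-3p carried many reads with uridines beyond the hairpin sequence, and this share was lower in DM3. Of 419 re-read miR-148a-3p reads, 3 had them. The commonest tailed forms are shown with the added letters in capitals.
miR-148b-3p with U, 32601 reads: ucagugcaucacagaacuuuguU
miR-148b-3p with UU, 2503 reads: ucagugcaucacagaacuuuguUU
miR-148b-3p with UUU, 1595 reads: ucagugcaucacagaacuuuguUUU
miR-152-3p with U, 8610 reads: ucagugcaugacagaacuuggU
miR-152-3p with A, 3656 reads: ucagugcaugacagaacuuggA
After the last base shown of the mature miR-148b-3p the hairpin goes on with CUC, and after that of miR-152-3p with GCC, so neither the U nor the A is templated at these ends.

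In control GM, 39.1%, 38.4%, 39.8% and 38.6% of re-read miR-148b-3p reads ended in added U alone, and in control DM3 29.1%, 26.01%, 29.7% and 25.5%. In tKO GM the shares were 33.6%, 33.9%, 34.5% and 35.3%, and in tKO DM3 19.5%, 17.9%, 23.8% and 21.7%. No library of DM3 reached any of GM, in either genotype or either replicate. The share fell in differentiation in both genotypes: in an edgeR fit of the odds of an added U across 139 names, the log2 odds ratio was -0.75 ± 0.14 (SE, adjusted p = 0.000559) in control and -0.998 ± 0.14 (adjusted p = 1.80e-05) in tKO. By that fit 22.3% of names were called lower in control DM3 and 18% in tKO DM3. The means were 39.0% ± 0.63 and 27.6% ± 2.14 (SD, n = 4 each) in control GM and DM3, and 34.3% ± 0.78 and 20.7% ± 2.57 in tKO.

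miR-152-3p went the same way. Its share with added U alone was 29.5%, 26.1%, 26.04% and 27.2% in control GM and 18.8%, 17.4%, 19.3% and 17.6% in control DM3. It was 21.4%, 21.7%, 21.9% and 24.9% in tKO GM and 12.8%, 15.4%, 12.9% and 16.5% in tKO DM3. The groups of GM and DM3 again do not overlap, and the log2 odds ratio was -0.74 ± 0.15 (edgeR adjusted p = 0.000843) in control and -0.75 ± 0.15 (adjusted p = 0.000542) in tKO. Both guides are thus among the 21.9% of 114 names whose DM3 libraries all lay below the GM ones in control, and the 18.5% of 81 names in tKO. An exact permutation over libraries gave each of these 4 differences the smallest p it can, 0.0286, or 0.0541 adjusted over the 36 tail and start tests made. For miR-152-5p, added U ended 1.38% to 1.64% of reads in control GM and 0% to 0.741% in control DM3, on 4 reads in all in the latter, and the log2 odds ratio was -2.29 (edgeR adjusted p = 0.00465). In tKO it ended 1.41% to 1.67% in GM and 0% to 1.87% in DM3, so that the groups overlap, with a log2 odds ratio of -1.49 (adjusted p = 0.0108). The call for miR-152-5p in control was lost without DM3 line 2 replicate 2 (-1.46, edgeR adjusted p = 0.293). In tKO it was lost without DM3 line 1 replicate 2 (-1.19, adjusted p = 0.105), DM3 line 2 replicate 2 (-1.26, adjusted p = 0.0923) or GM line 2 replicate 2 (-1.42, adjusted p = 0.0875).

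Over all re-read reads of a library, the share ending in added U alone moved in opposite directions in the 2 replicates. From GM to DM3 it was higher in all 4 lines of replicate 1 (5.15% to 5.50% in GM, 5.37% to 6.997% in DM3) and lower in all 4 lines of replicate 2 (6.05% to 6.38% in GM, 5.29% to 6.24% in DM3). The median name changed by a log2 odds ratio of -0.28 in control and -0.24 in tKO. Reads with 2 or more added uridines made up 4.84% to 6.52% of re-read miR-148b-3p reads in control and 3.14% to 4.79% in tKO while the cells grew. After 3 days of differentiation they made up 1.43% to 2.21% in control and 0.296% to 1.29% in tKO. The last minimum rests on 1 of 338 reads. For miR-152-3p they made up 2.65% to 3.33%, 0.805% to 2.49%, 0.758% to 1.32% and 0% to 1.003% in the same order, where 0 of 149 reads stands for the lowest library (Wilson 95% upper limit 2.51%).

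**Figure D3:**
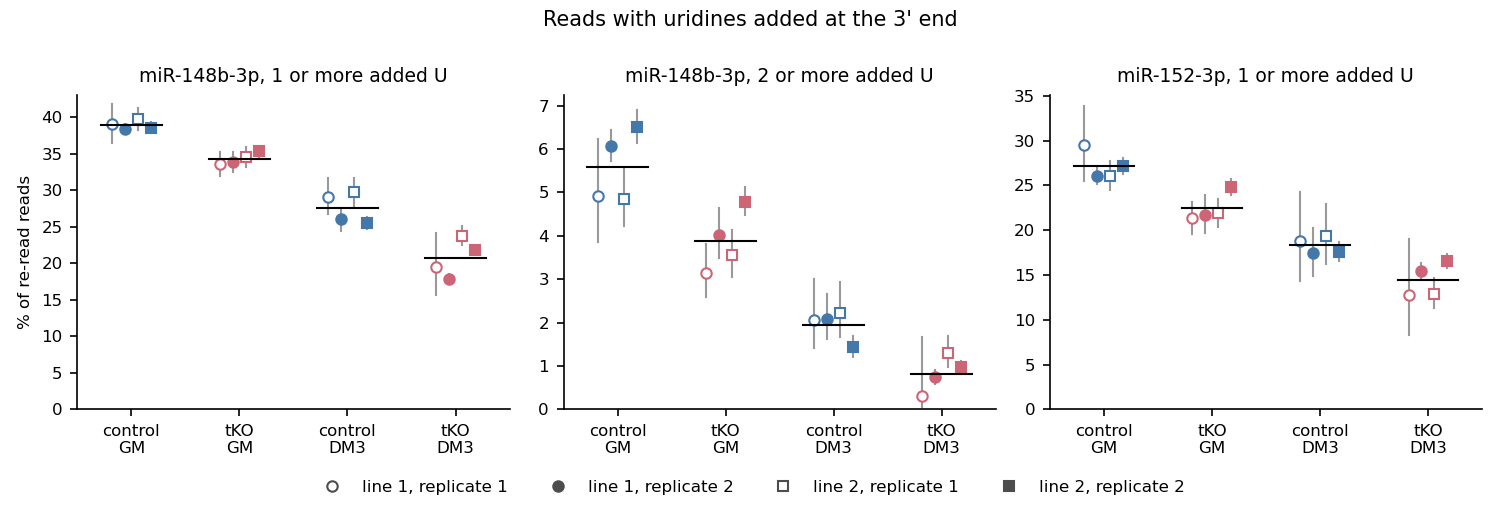
Percent of re-read reads with added uridines in each library (vertical axis, starting at 0), for miR-148b-3p with any number, miR-148b-3p with 2 or more, and miR-152-3p with any number; grey bars are Wilson 95% intervals for counting error, black lines group means, circles line 1, squares line 2, open symbols replicate 1 and filled symbols replicate 2. For miR-148b-3p the 4 groups lie in 4 separate ranges, from 38.4% to 39.8% in control GM down to 17.9% to 23.8% in tKO DM3.

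The same shares were lower in tKO than in control in each medium, without passing the test across names in the fit without the replicate number. For miR-148b-3p the log2 odds ratio of tKO against control was -0.29 ± 0.14 in GM (edgeR adjusted p = 0.549) and -0.53 ± 0.15 in DM3 (adjusted p = 0.153). With the replicate number as a block the latter passed, at -0.52 (edgeR adjusted p = 0.0211), the 1 name of 139 (0.719%) that this blocked fit called lower in tKO. For miR-152-3p it was -0.35 ± 0.14 in GM (adjusted p = 0.549) and -0.36 ± 0.16 in DM3 (adjusted p = 0.471). The libraries of the 2 genotypes do not overlap in any of these 4 comparisons, which held for 3.57% of 140 names in GM and 10% of 80 names in DM3 with the lower values in tKO. The fit called 0% of 139 names lower in tKO in GM and 0% in DM3, and at an unadjusted p under 0.05 it would name 10 and 11 in either direction. Each genotype is 2 lines: the line means of miR-148b-3p were 38.7% and 39.2% in control and 33.7% and 34.9% in tKO in GM, and 27.57% and 27.60% in control and 18.7% and 22.8% in tKO in DM3. Whether the changes in differentiation differ between the genotypes was tested as an interaction, and the adjusted p was 0.954 for miR-148b-3p and 0.986 for miR-152-3p.

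Added adenosines were counted in the same way. Among re-read miR-152-3p reads, A alone ended 12.4% to 14.9% in control GM and 12.97% to 15.5% in control DM3, with a log2 odds ratio of 0.03 ± 0.12 (edgeR adjusted p = 0.837), and the corresponding value in tKO was -0.01 ± 0.11 (adjusted p = 0.971). For miR-148b-3p the share fell in control, from 5.74% to 6.55% in GM to 4.09% to 4.59% in DM3 (log2 odds ratio -0.51 ± 0.10, adjusted p = 0.000112), and in tKO the ratio was -0.26 ± 0.10 (adjusted p = 0.0887; -0.32 and 0.0467 without tKO GM line 2 replicate 2). Lower A shares were called for 32.9% of 140 names in control and 8.57% in tKO.

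The 5p arm of miR-152 had 2 starts, and their proportion changed with differentiation. The forms are shown because the later start moves the seed, in capitals, from AGGUUCU to GGUUCUG.
miR-152-5p, mature start: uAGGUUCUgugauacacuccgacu
miR-152-5p, start 1 base later: aGGUUCUGugauacacuccgacu
In control GM 62.7%, 48.01%, 52.6% and 45.9% of re-read miR-152-5p reads began 1 base later, and in control DM3 30.9%, 25.6%, 25.9% and 30.9%. In tKO GM the shares were 50.0%, 44.3%, 43.8% and 41.1%, and in tKO DM3 19.05%, 31.01%, 33.0% and 32.9%, the first of these on only 21 reads, 4 of them with the later start. In control all DM3 libraries lay below all GM libraries, and the share of names with groups apart is given below. For tKO that share was not counted, and the library with 21 reads is under the 50 reads that the permutation test required. The later start fell in control by a log2 odds ratio of -1.26 ± 0.16 (edgeR adjusted p = 1.47e-09, fitted across 109 names) and in tKO by -0.76 ± 0.15 (adjusted p = 1.96e-05).

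A lower share of this start was uncommon among names: 6.42% were called lower in DM3 by the fit in control and 6.42% in tKO, and 4.39% of 114 names had all control DM3 libraries below all GM ones, while 20 names had them all above. The interaction of genotype and differentiation was 0.51 ± 0.22 with an adjusted p of 0.519. The comparison of the genotypes did not pass the test, at -0.30 ± 0.14 in GM (adjusted p = 0.374) and 0.21 ± 0.17 in DM3 (adjusted p = 0.723), where the fit called 0% of the 109 names lower in tKO in GM and 0% in DM3. Counting only the exact mature sequence, and so leaving the later start out, miR-152-5p was higher in DM3 by a log2 fold change of 1.37 in control and 1.10 in tKO, with edgeR adjusted p of 0.00294 and 0.0152, where 29.5% and 30.5% of 292 names were called, against 0.17 and 0.58 for all listed reads.

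**Figure D4:**
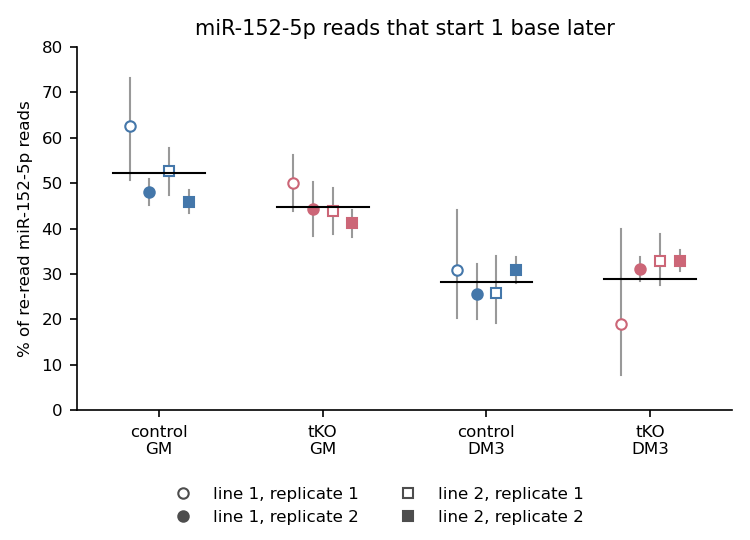
Percent of re-read miR-152-5p reads that begin 1 base after the mature start (vertical axis from 0 to 80), by library; grey bars are Wilson 95% intervals, black lines group means, circles line 1, squares line 2, open symbols replicate 1 and filled symbols replicate 2. GM libraries lie between 41.1% and 62.7%, DM3 libraries between 19.05% and 33.0%.

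The 3 libraries of line 1 replicate 1 in which the 19 nt form changed its name were left out together. The log2 odds ratios of added U in differentiation then were -0.78 and -0.98 for miR-148b-3p and -0.71 and -0.72 for miR-152-3p (control and tKO), and those of the later start of miR-152-5p -1.21 and -0.73. The largest adjusted p of these 6 was 0.00630 by edgeR.

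Among miRNAs whose seed is the family's moved by 1 base, 0 of 4 were called in either genotype comparison. In differentiation, where 27.6% of all names were called in control and 19.7% in tKO, 2 of 4 fell in control, miR-130b-3p by a log2 fold change of -2.74 and miR-130a-3p by -1.35, and 1 of 4 fell in tKO, miR-130b-3p by -1.03 (adjusted p = 0.0481). The list of 18 muscle miRNAs and methyltransferase-targeting miRNAs had 6 higher and 1 lower in control differentiation and 5 higher and 0 lower in tKO, beside the same shares of all names. Its lower name was miR-29a-3p at -0.86 (adjusted p = 0.0233), of the miR-29 family that also targets DNA methyltransferases. For the genotype, which called 1.12% of names in GM and 0.867% in DM3, 1 of 18 was lower in GM and 2 of 18 in DM3, and all of these were miR-206-3p or miR-1a-3p, the deleted miRNAs. The list medians were 0.41 in control and 0.30 in tKO differentiation, beside 0.02 and 0.01 over all names.

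Across the 16 libraries the profile of log2 CPM most like miR-148b-3p, among 244 names outside the family with at least 100 CPM, was that of miR-27b-3p (Pearson r = 0.819), followed by miR-183-5p (r = 0.792) and miR-27a-3p (r = 0.790). For miR-152-3p the nearest were miR-374b-5p (r = 0.949), miR-199b-3p (r = 0.906) and miR-103-3p (r = 0.887), and for miR-148a-3p the nearest of these names was miR-881-3p (r = 0.495). Within the family, miR-148b-3p correlated with miR-152-5p at r = 0.798, with miR-152-3p at r = 0.533 and with miR-148a-3p at r = 0.509, and miR-152-3p with its own 5p arm at r = 0.765. miR-148b-3p and its 5p arm as listed gave r = -0.182. These coefficients describe libraries that fall into 4 groups and differ in depth, with the larger ones in replicate 2.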

How the data were processed

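Small RNA libraries were made from total RNA by adapter ligation, amplification and gel selection, per the labels' protocols. The submitters' processing notes name cutadapt 1.15, STAR 2.5.4 and mm10. The deposited tables are unitas output per the file headers, in which the authors give each sequence an expected count of reads, not normalized; the unitas version is not given in the sources used here. Expected counts were summed per name and rounded. Of 2510 names, 236 without an exact mature sequence were merged into the mature name they equal apart from copy number, arm or the letter a, leaving 2274. All 16 libraries entered 1 fit by edgeR 4.0.16 in R 4.3.3 (quasi-likelihood test, TMM, filterByExpr with a smallest count of 10, Benjamini-Hochberg over 807 names, threshold 0.05); DESeq2 1.42.0 was an alternative. A share was fitted by edgeR with 2 counts a library (inside and outside the class) and a term for each library, for names with at least 10 re-read reads in every library and 20 in the class. Shares were also compared by two-sided exact permutation over libraries with at least 50 reads (scipy 1.17.1). Arm shares were set beside those of all hairpins with at least 50 reads in each control library and 20 in each arm. Both fits were also run on simulated data, but the outcome is not given here and no result rests on it. The re-reading, the share fit and its tests were chosen after the data were seen. Members and lists were chosen with earlier results of these data known. Named are the 6 members, the 3 most similar names for miR-148b-3p and for miR-152-3p, the most similar name for miR-148a-3p, and the called or defining names of the lists. Intervals cover counting error only, as reads carry no molecular identifiers. p-values measure the spread between libraries, of which 2 share a line. Replicate numbers were checked for pairing over 555 names. Deviations from group means correlated by 0.0979 on average with the same number and -0.0917 with different numbers. Single pairs of the same number ran from -0.464 to 0.631, so the main fits did not treat the numbers as pairs. The replicate block and the counts of pairs did so as alternatives. Added U over all re-read reads in GM did differ by number, at 5.15% to 5.50% in replicate 1 and 6.05% to 6.38% in replicate 2.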

Additional observations from a re-analysis of the deposited data

Results flagged for a closer look

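Within groups of 4 libraries, 69 sets of values were examined for a value far from the other 3, and 4 stood apart; chance would mark about 1 in 20. miR-148a-3p in tKO GM was at 11.1 TMM-scaled CPM in 1 library, below the other 3. The percent of miR-148b-3p with added A in control GM was 6.55 in 1 library, above the others, and in control DM3 4.59 in 1 library. The percent of miR-152-3p with added U in tKO GM was 24.9 in line 2 replicate 2, above the others and still below every control GM library.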

How the results depend on the processing

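The lower share of added U in DM3 for miR-148b-3p and miR-152-3p, and of the later start of miR-152-5p, kept its direction and stayed past the edgeR threshold without any single library and with the replicate block. Levels near 0 change sign easily, and the cause was not tested for any of the changes below. Depth limits the smallest library most, where 3 reads are 26.6 CPM.

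The replicate block, in which same-numbered libraries are treated as paired, gave a log2 odds ratio of -0.52 for added U on miR-148b-3p in tKO against control in DM3 (edgeR adjusted p = 0.0211, against 0.153 without it), 1 of 139 names called in that fit. For added U in differentiation the blocked fit called 48 names in control and 45 in tKO, against 36 and 27 without it. For levels the block called 10, 7, 241, 168 and 0 names in the 5 comparisons and 0 members. The paired arm ratio of miR-152 in control differentiation was 0.62. Without pairing, it was 0.63 with sequences of 18 to 25 nt, and neither was past the threshold. The smallest p that the paired exact permutation test can give is 0.0556.

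Without 1 library at a time, the arm ratio of miR-152 ranged from 0.52 to 0.78 in control differentiation and from -0.14 to 0.037 for the genotype in GM, and that of miR-148b from -0.92 to -0.65 in control differentiation. The share of miR-148b-3p among listed 3p reads moved by -1.08 to 3.80 points for the genotype in GM, 9.36 to 14.1 in control differentiation and -0.534 to 4.35 in tKO differentiation. That of miR-152-3p moved by -3.84 to 1.19 for the genotype in GM and -4.41 to 0.622 in tKO differentiation. That of miR-148a-3p moved by -0.108 to 0.128, -0.0538 to 0.0190, -0.0924 to 0.0307 and -0.176 to 0.0587 in the 4 comparisons. For the genotype in DM3 it was 0.133 without mismatches, 0.157 on exact mature sequences and 0.131 re-read. By the deposited tail columns, which count templated bases as added, the tail percent of miR-148b-5p ranged from -4.45 to 9.38 for the genotype in GM and that of miR-152-5p from -3.39 to 0.00832. With sequences of 18 to 25 nt it was -2.53 for miR-148b-5p in that comparison and 1.98 in tKO differentiation. Added A ranged from -0.0145 to 0.431 points on miR-148b-3p and -0.717 to 0.706 on miR-152-3p for the genotype in DM3, from -0.177 to 0.836 on miR-152-3p in control differentiation, and from -0.563 to 0.412 on miR-152-5p for the genotype in GM. On reads of the mature length or longer, miR-152-5p changed by -0.248 points in added U and 0.628 in added A in that comparison. The interaction for added U on miR-152-3p ranged from -0.099 to 0.074.

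For miR-148b-3p, the log2 fold change of the genotype in GM was 0.036 with DESeq2 size factors, 0.049 with total counts, 0.086 above 100 CPM, 0.027 with only the groups compared, 0.27 in replicate 1 alone, 0.055 without mismatches, 0.15 at 18 to 25 nt, 0.16 on exact mature sequences, 0.013 without merging, 0.087 re-read, 0.084 re-read with the replicate block, 0.033 thinned and 0.036 by the DESeq2 Wald test (-0.086 to 0.13 without 1 library). In DM3 it was -0.046 with total counts, -0.024 above 100 CPM, -0.090 in replicate 1 alone, -0.042 without mismatches, -0.10 at 18 to 25 nt, -0.16 on exact mature sequences, -0.16 re-read and -0.16 re-read with the replicate block (-0.20 to 0.30 without 1 library). In control differentiation it was 0.71 with total counts, -0.011 in replicate 2 alone, 0.63 without mismatches, 0.72 at 18 to 25 nt, 0.90 on exact mature sequences, 0.75 re-read and 0.74 re-read with the replicate block. The interaction was -0.095 with total counts, -0.11 above 100 CPM, -0.36 in replicate 1 alone, -0.10 without mismatches, -0.25 at 18 to 25 nt, -0.32 on exact mature sequences, -0.25 re-read and -0.24 re-read with the replicate block (-0.18 to 0.31 without 1 library).

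For miR-152-3p, the genotype in GM was 0.027 above 100 CPM, 0.36 in replicate 1 alone, 0.031 without mismatches, 0.085 at 18 to 25 nt, 0.18 on exact mature sequences, 0.094 re-read and 0.10 re-read with the replicate block (-0.25 to 0.19 without 1 library). Its tKO differentiation was -0.00107 without a filter and -0.30 in replicate 1 alone (-0.15 to 0.29 without 1 library). miR-152-5p in control differentiation was -0.056 without a filter (-0.14 to 0.30 without 1 library). miR-148b-5p was 0.29 on exact mature sequences and 0.0099 thinned in control, and 0.055 without mismatches in tKO. miR-148a-3p in control differentiation was -0.19 without a filter, -0.15 in replicate 2 alone, -0.10 with replicates summed, -0.46 without mismatches, -0.33 re-read and -0.49 re-read with the replicate block (-0.20 to 0.11 without 1 library), and in tKO -0.00654 re-read with the replicate block.

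In control differentiation 1 member was called with total counts (26.6% of all 807 names tested were called), without mismatches (31.9% of 483), at 18 to 25 nt (28.2% of 493), re-read (29.8% of 372) and re-read with the replicate block (33.3% of 372), and 2 on exact mature sequences (29.5% of 292); in tKO 1 was called on exact mature sequences (30.5% of 292). Total-count scaling moved the median of all names by 0.13 for the genotype in GM, 0.24 in tKO differentiation and -0.13 for the interaction. Names called for the genotype in GM were 15 without a filter, 2 in replicate 1 alone, 18 without mismatches, 16 at 18 to 25 nt, 20 re-read, 23 re-read with the replicate block and 20 by DESeq2 (5 to 14 without 1 library). In DM3 they were 14 without a filter, 12 above 100 CPM, 4 with only the groups compared, 1 in replicate 1 alone, 70 in replicate 2 alone, 74 with replicates summed, 13 without mismatches, 15 at 18 to 25 nt, 13 on exact mature sequences, 11 re-read, 17 re-read with the replicate block, 2 thinned and 19 by DESeq2 (5 to 53 without 1 library, the most without tKO DM3 line 1 replicate 1). In control differentiation they were 99 above 100 CPM, 85 in replicate 1 alone, 139 at 18 to 25 nt, 86 on exact mature sequences, 111 re-read, 124 re-read with the replicate block and 109 thinned. In tKO differentiation they were 83 above 100 CPM, 82 with only the groups compared, 74 in replicate 2 alone, 89 on exact mature sequences, 93 re-read, 105 re-read with the replicate block and 93 thinned. The interaction had 1 with replicates summed, at 18 to 25 nt and on exact mature sequences (0 to 1 without 1 library).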
